A study of Mus musculus with 16 samples.

Results

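The 9 genes described here, Dbp, Tef, Hlf, Nfil3, Ciart, Nr1d1, Nr1d2, Bhlhe40 and Bhlhe41, are transcriptional regulators that lie directly downstream of the circadian clock. They were taken from the kidney gene count matrix by gene symbol, 1 row each, and make up 9 of its 57186 rows. All 9 had enough counts to be tested, among 25408 tested genes. RNA was sequenced from whole kidneys of 16 male mice on a C57BL/6J background, 4 in each of 4 groups, all of them Elmo1H/H, a genotype in which Elmo1 is overexpressed, so no group had a normal Elmo1 locus. ND_C mice were non-diabetic (Elmo1H/H Ins2+/+) without supplement, and ND_B12 mice had the same genotype and vitamin B12. D_C mice were diabetic (Elmo1H/H Ins2Akita/+) without supplement, and D_B12 mice were diabetic with B12. The Akita allele of the insulin gene Ins2 makes a misfolded proinsulin that damages beta cells, so the model is one of insulin deficiency and not of insulin resistance. B12 was given in the drinking water at 10 mg/kg/day from 8 weeks of age, for 16 weeks by the labels and for a shorter time by the methods of the study. Kidneys were taken in the middle of the light phase, and the hour of each mouse is not given.

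The circadian clock is a transcriptional loop that runs in nearly every cell. BMAL1 with CLOCK or NPAS2 binds E-box sequences and activates the period and cryptochrome genes, whose proteins then inhibit their own activators. The same activators drive most of the output genes studied here. DBP, TEF and HLF, the proline and acidic amino acid-rich (PAR) bZIP factors, activate genes through D-box sequences, and NFIL3 (E4BP4) represses through the same sequences. NR1D1 and NR1D2 (REV-ERB alpha and beta) are nuclear receptors that repress Bmal1, Npas2 and Nfil3 through ROR elements. CIART (CHRONO) and the basic helix-loop-helix factors BHLHE40 and BHLHE41 (DEC1 and DEC2) repress E-box-driven transcription. In kidney and liver the PAR bZIP factors are known for the daily rhythm of drug metabolism and transport genes.

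The genes lie on several chromosomes in GRCm39 (GENCODE vM39). Dbp spans chr7:45354512-45359627 and Tef chr15:81686622-81711064 on the plus strand, and Hlf chr11:90227221-90281761 and Nfil3 chr13:53121245-53137010 on the minus strand. Ciart spans chr3:95785815-95789991, Nr1d1 chr11:98658752-98666188 and Bhlhe41 chr6:145803969-145811430, all on the minus strand, and Nr1d2 spans chr14:4230545-4266624 and Bhlhe40 chr6:108636626-108644502 on the plus strand. Hlf and Nr1d2 share no exon sequence with another gene. The other 7 overlap exons of a gene on the opposite strand, Sphk2 for Dbp, Thra for Nr1d1 and less studied genes for the rest. Spliced reads were given a strand from intron motifs in alignment, and whether counting separated unspliced reads by strand is not stated, so these genes' values may hold reads of their partners.

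The sequence elements were looked for in the 1000 bases before the start of each gene's main transcript, on both strands. The E-box searched was CACGTG, the D-box TTANGTAA and the core of the ROR element TAGGTCA, and no 2 of them overlapped at a site. Among 15877 such windows of tested protein-coding genes, 17.6% held the E-box, 9.37% the D-box and 8.75% the ROR core. Ciart held 4 E-boxes and 1 D-box, Nfil3, Nr1d1 and Bhlhe40 held 1 E-box each, and Dbp and Bhlhe41 held 1 ROR core each. Hlf and Nr1d2 held none of the 3. Tef held none before its main transcript Tef-202, but 3 E-boxes before the downstream start of Tef-201. A match describes letters and is not a shown binding site. The sites below are shown because they are the letters through which members of this set act on each other and on the clock, each read 5′ to 3′ on the strand of the gene with the element in capitals and named by the distance of its last base from the transcript start.
Ciart E-box, 37 bases before the start, chr3:95789582-95789609 (minus strand): gcagggggaggCACGTGcagaaccgcac
Ciart E-box, 23 bases before the start, chr3:95789568-95789595 (minus strand): gtgcagaaccgCACGTGtctgggagggg
Ciart D-box, 651 bases before the start, chr3:95790196-95790225 (minus strand): tgcgtggcaagTTATGTAAgaaccggctgg
Nr1d1 E-box, 362 bases before the start, chr11:98666510-98666537 (minus strand): agttctccaatCACGTGaagctctcacg
Bhlhe40 E-box, 217 bases before the start, chr6:108636393-108636420 (plus strand): cgcgtccgggcCACGTGaagcgtcacgc
Nfil3 E-box, 403 bases before the start, chr13:53135759-53135786 (minus strand): cgccacctctcCACGTGgtcggggacac
Tef-201 E-box, 466 bases before the start, chr15:81695133-81695160 (plus strand): cgccgcagccgCACGTGcagagcctcgt
Dbp ROR core, 183 bases before the start, chr7:45354312-45354340 (plus strand): ttggccaaataTAGGTCAgtgtcccgcct
Bhlhe41 ROR core on the opposite strand, 362 bases before the start, chr6:145811649-145811677 (minus strand): ggtctccagccTGACCTAaagggtgtctt
The Dbp element lies in an annotated exon of the neighbouring gene Car11. The Nr1d1, Ciart D-box and Bhlhe41 elements lie in exons of Gm31862, C920021L13Rik and Gm67129 on the other strand, and those of Nfil3 and Bhlhe40 in exons of predicted genes on both strands. The 2 Ciart E-boxes nearest the start and the Tef-201 element shown overlap no annotated exon.

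Total counts were 65271308 to 91771136 per library, and the log2 profiles of the 120 pairs of libraries correlated at 0.972 to 0.985. Kidney markers were abundant, with summed normalized counts of 829838 to 1074260 for 5 proximal tubule genes, whereas 1 of 5 skeletal muscle and 2 of 6 adrenal markers had enough counts to be tested. Library names carry 10 different dates, 6 of them with 1 library, and what the dates mark is not stated. The D_C and D_B12 libraries share no date, and in diabetic kidneys date and treatment cannot be told apart. D_C and ND_C share none either, nor do D_B12 and ND_B12, so date and diabetes cannot be told apart in either diabetes comparison. A supplementary table of group means places other libraries under the group names than the labels do. Its D_C means equalled those of the 4 libraries labelled D_B12, and its D_B12 means those of ND_B12 4 with D_C 2, 3 and 4. Its ND_C means equalled those of ND_C 1, 2 and 4 with ND_B12 1, and its ND_B12 means those of ND_C 3, ND_B12 2 and 3 and D_C 1. Over the 8 genes of this set that it lists, the median difference was at most 0.000162 on the log2 scale for these sets, against 0.0447 to 0.666 for the labelled sets. Groups below are those of the labels, and every direction depends on that naming.

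Levels per length, as CPM (counts scaled to the library total) per kilobase of transcript, placed the 9 genes in 3 tiers. Tef was the most abundant, at 79.4 ± 8.32 (SD over 16 libraries). Nr1d1 (31.7 ± 6.18), Dbp (30.7 ± 14.0), Hlf (26.8 ± 4.69), Nr1d2 (23.6 ± 3.16) and Bhlhe40 (18.2 ± 4.01) formed a middle tier in which each neighbour's range overlapped the next. Ciart (3.39 ± 1.47), Nfil3 (2.09 ± 1.14) and Bhlhe41 (1.26 ± 0.55) were the lowest, also with overlapping ranges. Only the steps from Tef to Nr1d1 and from Bhlhe40 to Ciart separated all 16 libraries without overlap. Values given from here on for single genes are normalized counts, which are not scaled by length and are comparable only within a gene.

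The first comparison, D_B12 against D_C, asked whether B12 altered these genes in the diabetic kidney. By the labels, Dbp, Tef and Nr1d2 were lower in every D_B12 library than in every D_C library, and Nfil3, the repressor of the D-box, was higher in every D_B12 library. None of the 9 genes passed the edgeR quasi-likelihood test at an adjusted p of 0.05, and neither did any other gene (0%). At an unadjusted p below 0.05, 6 of the 9 genes were lower, beside 7.21% of all genes, and 1 was higher, beside 6.44%, which makes 7 of 9 beside 13.6%. The groups did not overlap for 3 genes that were lower and 1 that was higher, beside 3.18% and 3.4% of all genes and 6.58% in both directions. With DESeq2 in place of edgeR, Dbp (adjusted p = 0.0337) and Nr1d2 (adjusted p = 0.0245) passed, beside 3.53% of all genes. The other 7 genes stayed short of the threshold with both tools. With the date in the library name as a covariate the log2 differences were larger for Dbp (-2.15, adjusted p = 0.0714), Nfil3 (1.83, adjusted p = 0.131), Ciart (-1.49, adjusted p = 0.228) and Bhlhe41 (-1.57, adjusted p = 0.187), and Nr1d2 passed (-0.74, adjusted p = 0.0316, all by edgeR). The covariate fits a straight line over days, and groups without a shared date are compared by extending that line. Values with this covariate, here and below, therefore do not separate date from group.

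Dbp had normalized counts of 4684, 5105, 6183 and 7567 in the D_C libraries and of 1789, 2092, 2903 and 3159 in the D_B12 libraries. The groups were separated by a gap wider than the whole D_B12 range. The log2 fold change was -1.24 (SE 0.36, adjusted p = 0.151 by edgeR), the largest of the 9 in size. The exact permutation test gave p = 0.0286, two-sided, which is the smallest that 4 libraries against 4 can give.

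Tef had 23470, 24790, 24837 and 25251 counts in D_C and 16732, 19859, 20557 and 21716 in D_B12. The D_C libraries lay unusually close together, with an SD of 3.14% of the mean. The difference was small, at -0.32 (SE 0.10, adjusted p = 0.19, edgeR), with no overlap. Hlf, the third PAR bZIP activator, had 10823, 11437, 13624 and 15401 counts in D_C and 9164, 9716, 10227 and 11518 in D_B12. Its groups overlapped, and the log2 difference was -0.33 (SE 0.12, adjusted p = 0.237, edgeR).

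Nfil3 had 195.7, 226.5, 267.2 and 267.5 counts in D_C and 287.8, 301.2, 660.3 and 742.3 in D_B12. D_B12 libraries 1 and 2 were far higher than libraries 3 and 4, which stood just above the D_C range. The log2 difference was 1.06 (SE 0.41, adjusted p = 0.268, edgeR). The same libraries stood apart for some genes that respond to temperature. D_B12 1 and 2 had 3414 and 3669 counts of the heat shock gene Dnajb1 against 1591 and 1826 in D_B12 3 and 4. Their counts of the cold-induced gene Cirbp were 788.4 and 797.2 against 1760 and 1484. Among genes chosen after their values were seen, Hspa1a had 4680 and 5271 counts against 792.6 and 908.5, and the adipocyte gene Plin1 had 514.6 and 1706 against 8.28 and 0. Rbm3, chosen in the same way from the list that holds Cirbp, did not split so, with 2323 and 2257 counts against 2296 and 2226. ND_C library 1, the highest of its group for Nfil3, was also the highest there for Dnajb1 (4747) and Hspa1a (11864). Its Cirbp count (1114) lay within the range of the other ND_C libraries, and its Rbm3 count (2207) was the highest of the group. The part of these differences in the Nfil3 values was not tested. Among the 9 genes only Nfil3 and Nr1d1 had a positive difference between D_B12 and D_C.

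Ciart had 365.9, 575.0, 585.0 and 636.1 counts in D_C and 247.8, 326.5, 359.5 and 371.7 in D_B12. A single pair overlapped, D_C library 1 lying below the highest D_B12 library. Its log2 difference was -0.73 (SE 0.37, adjusted p = 0.405, edgeR).

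The REV-ERB genes did not move alike. Nr1d2 had 9212, 9819, 11375 and 11622 counts in D_C and 7016, 7993, 8197 and 8744 in D_B12. The 2 groups were apart, with a log2 difference of -0.39 (SE 0.11, adjusted p = 0.138, edgeR), the smallest adjusted p of the 9. Nr1d1 had 4604, 5875, 7634 and 8484 counts in D_C and 6543, 7466, 8179 and 8363 in D_B12. All D_B12 libraries fell within the D_C range, and the log2 difference was 0.20 (SE 0.19, adjusted p = 0.693, edgeR).

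Bhlhe40 had 4990, 6556, 6886 and 7213 counts in D_C and 3521, 4245, 5428 and 5808 in D_B12. Only D_C library 2 lay within the D_B12 range. The log2 difference was -0.43 (SE 0.16, adjusted p = 0.242, edgeR). Bhlhe41 had 600.5, 884.8, 934.9 and 1151 counts in D_C and 329.0, 423.9, 459.8 and 834.9 in D_B12. D_B12 library 3 stood apart at 834.9, inside the D_C range, and the log2 difference was -0.80 (SE 0.34, adjusted p = 0.314, edgeR).

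**Figure D1:**
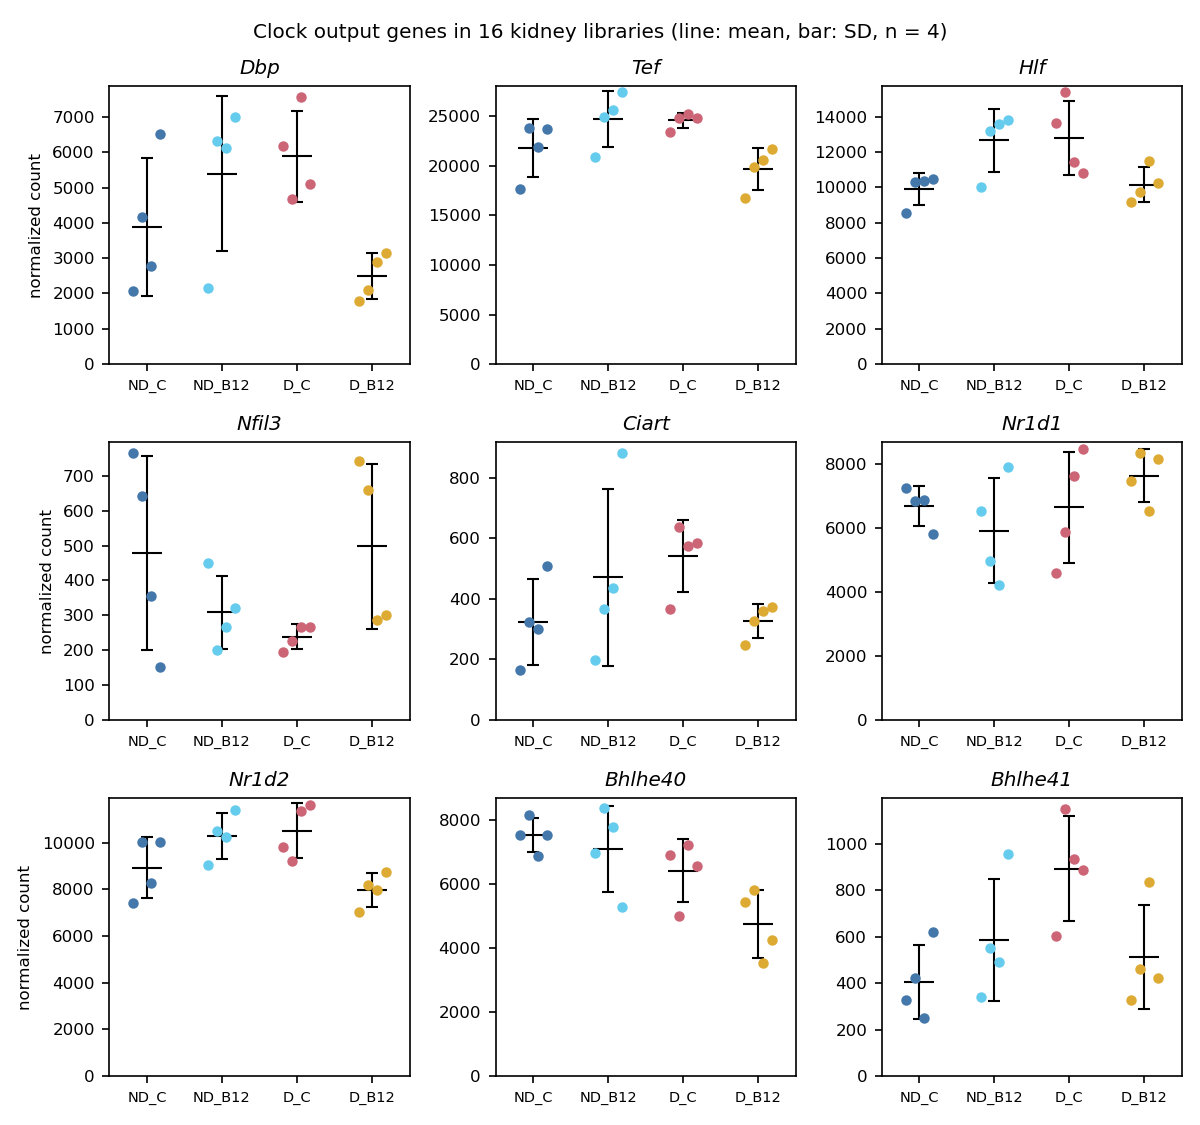
Normalized counts of the 9 clock output genes in each of the 16 kidney libraries, by labelled group on the horizontal axis; each point is 1 library, the horizontal line the mean and the bar the SD of 4 libraries. Dbp, Tef and Nr1d2 show no overlap between D_C and D_B12, whereas 1 ND_B12 library has 2148 Dbp counts beside 6116 to 6988 in the other 3.

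The second comparison, ND_B12 against ND_C, asked the same of non-diabetic kidneys. None of the 9 genes passed the adjusted test and none was free of overlap between the groups, beside 0% and 4.81% of all genes. DESeq2 passed none of the 9 either, beside 0.0236% of all genes. Hlf alone had an unadjusted p below 0.05, beside 7.62% of all genes, and its log2 difference was 0.35 (SE 0.12, adjusted p = 0.585, edgeR). Its counts were 8559, 10322, 10338 and 10495 in ND_C and 10050, 13196, 13590 and 13796 in ND_B12. The lowest ND_B12 library lay within the ND_C range, and the other 3 lay above it. The exact permutation test gave p = 0.114 for Hlf.

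Both non-diabetic groups were wide for several genes. Dbp had 2082, 2772, 4180 and 6509 counts in ND_C and 2148, 6116, 6318 and 6988 in ND_B12, with SDs of 50.3% and 40.7% of the mean. Its log2 difference was 0.48 (SE 0.35, adjusted p = 0.801, edgeR). Nfil3 ranged from 150.7 to 766.1 in ND_C, and Ciart from 199.8 to 881.9 in ND_B12. In ND_C, library 4 was the highest for Dbp and the lowest for Nfil3, and library 1 was the lowest for Dbp and the highest for Nfil3. ND_C 4 and ND_B12 1 carry the same date in their names, 21 August, and had 6509 and 2148 Dbp counts. ND_B12 2, 3 and 4 and D_C 1 share 28 August, and their Dbp counts were 6116 to 6988.

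The third comparison, D_C against ND_C, asked what diabetes changed without B12. By the labels, Bhlhe41 and Hlf were higher in most or all D_C libraries and Nfil3 was lower on average. None of the 9 genes passed edgeR at the adjusted p of 0.05, beside 1.66% of all genes, and 4 passed unadjusted, beside 18.6%. For these 4 the exact permutation test gave p = 0.0286 for Hlf, 0.0571 for Bhlhe41, 0.171 for Nr1d2 and 0.229 for Nfil3. DESeq2 passed Hlf (adjusted p = 0.0408) and Bhlhe41 (adjusted p = 0.0378), beside 8.4% of all genes. Bhlhe41 came nearest, with a log2 difference of 1.14 (SE 0.34, adjusted p = 0.0922, edgeR). It had 251.5, 327.5, 421.5 and 619.0 counts in ND_C against 600.5 to 1151 in D_C, and only 1 library of each group overlapped. Without D_C library 1 its adjusted p was 0.0469 (edgeR), with a log2 difference of 1.27. Hlf was the single gene whose groups did not overlap, beside 9.44% of all genes, with a log2 difference of 0.37 (SE 0.12, adjusted p = 0.116, edgeR). Nfil3 had a log2 difference of -0.996 (SE 0.41, adjusted p = 0.208, edgeR), although ND_C library 4 lay below all D_C libraries. Dbp differed by 0.60 (SE 0.35, adjusted p = 0.385, edgeR), and the difference was -0.0020 with the date as a covariate, where that of Nfil3 was -0.17.

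The fourth comparison, D_B12 against ND_B12, asked what diabetes changed in mice given B12. By the labels, Bhlhe40, Nr1d2, Dbp, Tef and Hlf had lower means in D_B12. None of the 9 genes passed edgeR at the adjusted p of 0.05, beside 0.823% of all genes, and 5 passed unadjusted, beside 17% of all genes. For these 5 the exact permutation test gave p = 0.0286 for Nr1d2, 0.0571 for Tef and 0.0857 for Dbp, Hlf and Bhlhe40. DESeq2 passed Dbp, Tef, Nr1d2 and Bhlhe40 (adjusted p between 0.0127 and 0.0491), beside 5.67% of all genes. Bhlhe40 had 5290, 6952, 7765 and 8372 counts in ND_B12 against 3521 to 5808 in D_B12, a log2 difference of -0.58 (SE 0.16, adjusted p = 0.0851, edgeR). ND_B12 library 4 was the one that overlapped, and without it the adjusted p was 0.0416 (edgeR) and the log2 difference -0.70. Nr1d2 had 9025, 10243, 10487 and 11409 counts in ND_B12 and was below that range in every D_B12 library, at -0.37 (SE 0.11, adjusted p = 0.101, edgeR). It was the only one of the 9 without overlap, beside 11.7% of all genes. Dbp (-1.12, SE 0.35), Tef (-0.33, SE 0.10) and Hlf (-0.32, SE 0.12) had log2 differences below 0, with adjusted p between 0.117 and 0.187 (edgeR). With the date as a covariate the differences were -2.39 for Dbp, 1.98 for Nfil3, -1.63 for Ciart and -1.29 for Bhlhe41, against -1.12, 0.69, -0.54 and -0.19 without it, and none of these 4 passed.

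**Figure D2:**
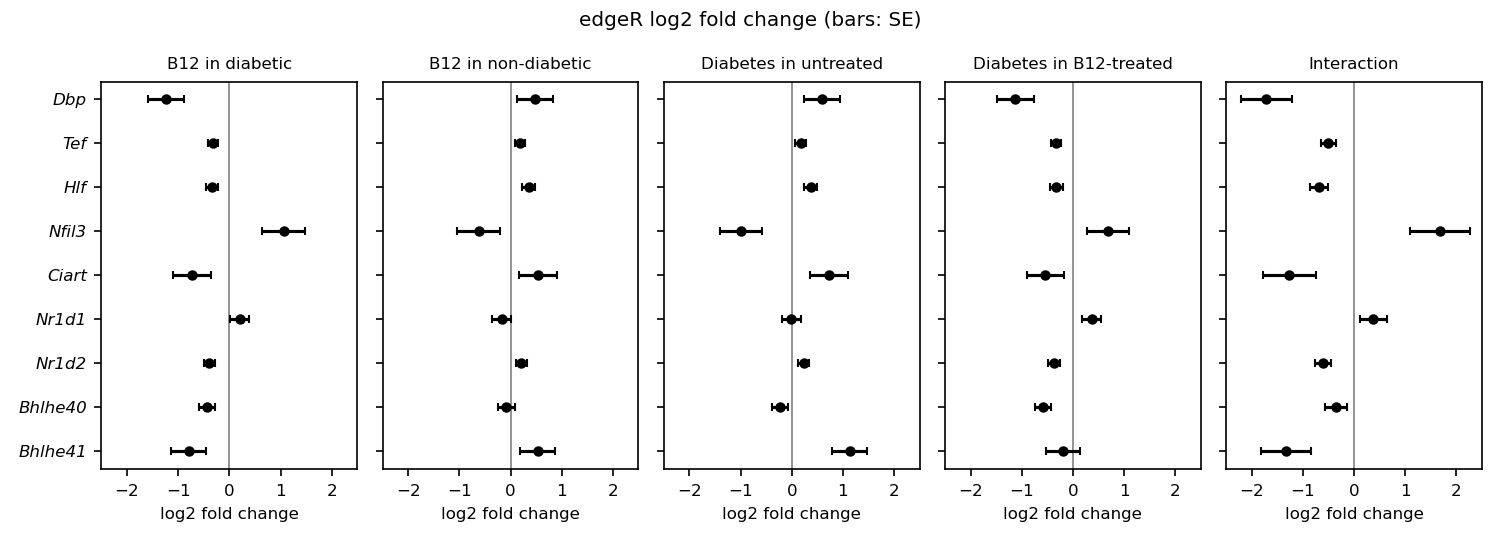
Log2 fold changes of the 9 genes from the edgeR fit of all 16 libraries, 1 panel per comparison; points are estimates and bars their SE. Dbp lies at -1.24 and Nfil3 at 1.06 in diabetic kidneys given B12, on the opposite side of 0 from their values in non-diabetic kidneys.

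The interaction, the B12 difference in diabetic minus that in non-diabetic kidneys, was tested directly. No gene passed at the adjusted p of 0.05 among these 9 or among all genes (0%), and 7 of the 9 passed unadjusted, beside 16.1% of all genes. DESeq2 passed Dbp, Tef, Hlf and Nr1d2 (adjusted p between 0.00742 and 0.0333), beside 4.84% of all genes. Hlf had an interaction of -0.69 (SE 0.17, adjusted p = 0.0856, edgeR) and Nr1d2 one of -0.60 (SE 0.15, adjusted p = 0.0872, edgeR). Dbp had the largest in size, -1.72 (SE 0.50, adjusted p = 0.119, edgeR). Nfil3 had one of 1.69 (SE 0.58, adjusted p = 0.172, edgeR), and Tef one of -0.50 (SE 0.15, adjusted p = 0.117, edgeR). Ciart (-1.27, SE 0.52) and Bhlhe41 (-1.33, SE 0.48) had adjusted p of 0.242 and 0.189 (edgeR). Nr1d1 and Bhlhe40 had unadjusted p of 0.174 and 0.134 (edgeR). With the date in the library name as a covariate, Dbp had -2.39 (adjusted p = 0.034, edgeR), a value under the limit given above for this covariate. Without ND_B12 library 1, Dbp and Hlf had adjusted p of 0.0414 and 0.0392 (edgeR).

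Across libraries, most of the 9 genes varied together. Of 36 pairs, 22 had a Pearson correlation of log2 CPM with an adjusted permutation p below 0.05, 15 of them positive and 7 negative. For 31 of the 36 pairs the deviations from group means correlated with the same sign. The tightest pair was Tef with Nr1d2 (Pearson r = 0.925, Spearman rho = 0.906, both permutation p = 1e-05, adjusted 0.00018 and 0.00024). It stood at 0.872 without the 2 libraries farthest from the median and at 0.847 within groups. Dbp correlated with Tef at r = 0.911 (rho = 0.891, permutation p = 1e-05 and 2e-05, adjusted 0.00018 and 0.00024), at 0.904 without the 2 farthest libraries and at 0.845 within groups. A permutation p of 1e-05 is the smallest that 100000 resamples can give.

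Ciart paired most closely with Bhlhe41 (r = 0.835, rho = 0.891, permutation p = 8e-05 and 2e-05, adjusted 0.000576 and 0.00024), and r was 0.831 without the 2 farthest libraries. Nfil3 ran opposite to Dbp (r = -0.777, rho = -0.762, permutation p = 0.00059 and 0.00094, adjusted 0.00265 and 0.00331), with r = -0.665 without the 2 farthest libraries and -0.696 within groups. Nfil3 was the only gene with a significant negative correlation to each of Dbp, Tef, Hlf, Ciart, Nr1d2 and Bhlhe41. Bhlhe40 reached no significant correlation with any of the others by either measure. By Pearson's r, Nr1d1 reached it with Hlf alone (r = -0.57, permutation p = 0.0223, adjusted 0.0366; rho = -0.438, permutation p = 0.0927, adjusted 0.139; r = -0.769 without the 2 farthest libraries), and by Spearman's rho with Nfil3 alone (rho = 0.553, permutation p = 0.0303, adjusted 0.0497; r = 0.511, permutation p = 0.0447, adjusted 0.07; r = 0.505 without the 2 farthest libraries). Nr1d1 and Nr1d2, the REV-ERB pair, had r = -0.167 (rho = -0.0618, permutation p = 0.536 and 0.823, adjusted 0.603 and 0.864; r = -0.0459 without the 2 farthest). The dates in the library names hold 1 to 4 libraries each, too few for a correlation within a date.

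**Figure D3:**
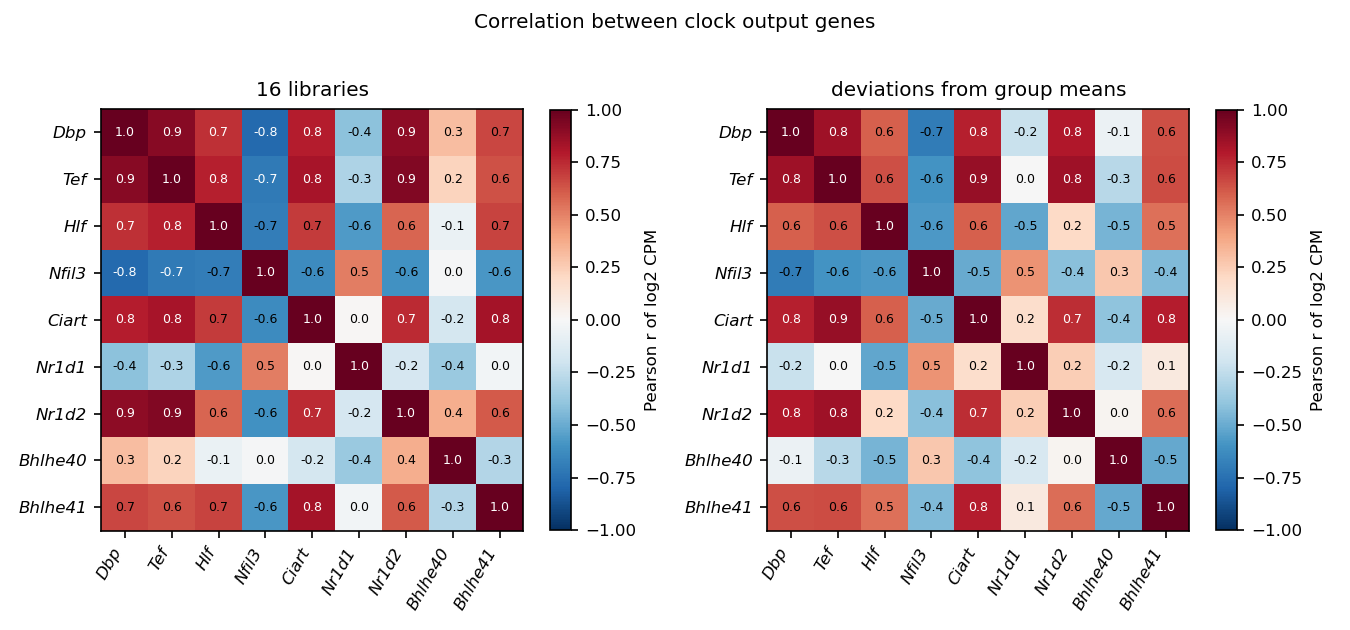
Pearson correlation of log2 CPM between the 9 genes, over 16 libraries on the left and for deviations from the 4 group means on the right; red is positive and blue negative, and each cell prints r to 1 decimal. Dbp, Tef, Hlf, Ciart, Nr1d2 and Bhlhe41 form a positive block, Nfil3 is negative to all 6, and Nr1d1 and Bhlhe40 lie mostly outside it.

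The genes whose log2 CPM followed each of the 9 most closely, over all tested genes with a symbol and 16 libraries, came partly from the set itself. For Dbp they were Per3 (r = 0.932), Tef (0.911) and Tspan4 (0.905), for Tef they were Nr1d2 (0.925), Dbp (0.911) and Map2k6 (0.91), and for Nr1d2 they were Tef (0.925), Dnajc6 (0.913) and Pcgf5 (0.909). For Hlf the third was Cry2 (0.887), after Sh2b3 (0.906) and Nab2 (0.893). Ciart was followed by Bnip3 (0.919), Ubox5 (0.908) and Mfsd9 (0.889), and Bhlhe41 by Gcnt4 (0.93), Lrrc32 (0.929) and Arih2 (0.911). Nfil3 had Pcdh12 (0.904), Zfp207 (0.885) and Ccar1 (0.872), Nr1d1 had Zhx3 (0.914), Riok3 (0.891) and Knl1 (0.882), and Bhlhe40 had Cabcoco1 (0.896), Soat1 (0.894) and Nxph4 (0.882). These are the extremes of 25408 genes and carry no test.

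Bmal1, which encodes the partner of CLOCK, was measured in the same libraries. Its normalized counts were 567.3 to 1017 in D_B12, 230.2 to 323.9 in D_C, 324.4 to 1115 in ND_C and 226.3 to 1063 in ND_B12. Dbp had the largest Pearson correlation in size, at r = -0.964 (rho = -0.897, both permutation p = 1e-05, adjusted 4.5e-05 and 3e-05), with -0.953 without the 2 farthest libraries and -0.953 within groups. Tef, with the largest Spearman correlation in size, had r = -0.898 (rho = -0.926, both permutation p = 1e-05, adjusted 4.5e-05 and 3e-05; -0.902 without the 2 farthest). Nfil3 ran with Bmal1 at r = 0.778 (rho = 0.685, permutation p = 0.00044 and 0.00427, adjusted 0.00066 and 0.00549; 0.673 without the 2 farthest), and Nr1d1 did so without passing the threshold (r = 0.448, rho = 0.218, permutation p = 0.082 and 0.416, adjusted 0.0923 and 0.468; 0.281 without the 2 farthest). The widest gap in Bmal1 split the libraries into 8 low and 8 high ones. Within the 8 low libraries r with Bmal1 was -0.31 for Dbp, -0.632 for Tef and -0.577 for Nfil3, and within the 8 high ones it was -0.924, -0.76 and 0.507. For Nfil3 the sign differed between the low and the high libraries. The split was taken from the Bmal1 values themselves, with all D_C libraries among the low and all D_B12 libraries among the high ones. None of these correlations within 8 libraries was tested.

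**Figure D4:**
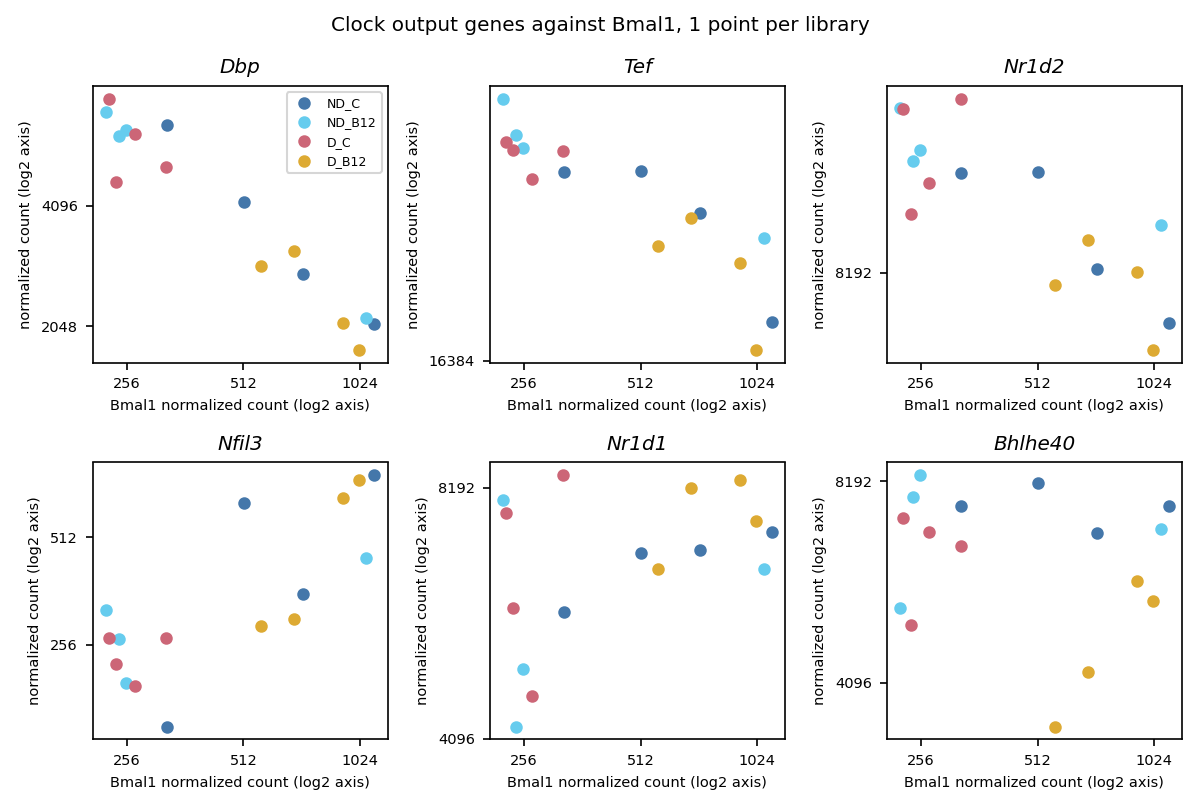
Normalized counts of 6 of the genes against Bmal1, both on log2 axes, with 1 point per library and colours for the labelled groups. Dbp, Tef and Nr1d2 decline from left to right in all groups together, Nfil3 climbs, and Nr1d1 and Bhlhe40 scatter.

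The counts of the transcript table showed which forms of each gene were measured. Hlf, Nfil3, Nr1d1, Nr1d2, Bhlhe40 and Bhlhe41 each had over 95% of their transcript counts on 1 protein-coding transcript. Ciart was split between Ciart-202 (61.0%) and Ciart-201 (31.3%), which start at the same base. Tef had 85.2% on Tef-202 and 5.72% on Tef-201, whose start lies downstream behind the E-boxes described above. Its mean share was 4.98% ± 0.721 for ND_C, 5.75% ± 0.672 for ND_B12, 6.07% ± 1.33 for D_C and 6.09% ± 0.606 for D_B12 (SD, n = 4), with overlapping ranges.

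Dbp and Tef also had counts on transcripts with a retained intron, and these shares differed between groups in the direction opposite to the gene's level. Dbp-205, which begins inside the intron before the third exon of Dbp-201 and retains it, held 13.1%, 13.4%, 15.5% and 17.3% of Dbp counts in D_B12 and 8.44%, 10.2%, 10.2% and 13.2% in D_C. One pair of libraries overlapped. In non-diabetic kidneys it held 9.91%, 11.3%, 13.4% and 16.0% in ND_C and 6.53%, 6.55%, 7.62% and 9.00% in ND_B12, without overlap. Tef-203 behaved alike, with 7.17% to 8.95% of Tef counts in D_B12 against 4.66% to 6.86% in D_C, without overlap. In ND_C it held 5.87% to 7.80% and in ND_B12 4.76% to 5.94%, and 1 pair overlapped. A share is taken over the gene's own counts, so it can rise when the transcript itself does not. Raw counts of Dbp-205 were 510 to 782 in D_C and 233 to 488 in D_B12, lower as for the gene. Those of Tef-203 were 1324 to 1901 in D_C and 1388 to 1763 in D_B12. These shares come from estimated transcript counts, were looked at after the values were known, and were not tested.

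**Figure D5:**
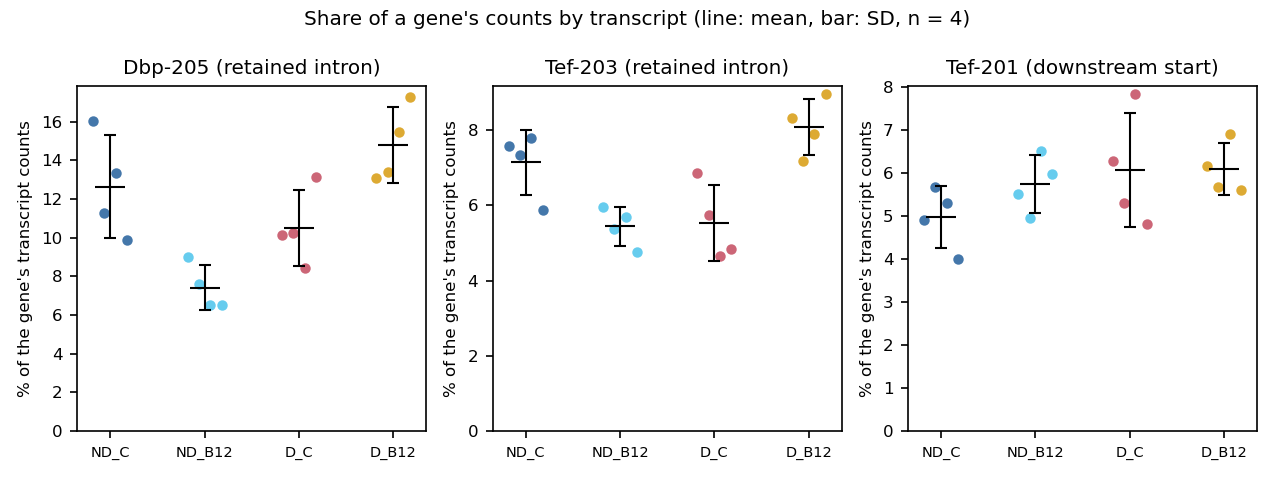
Share of a gene's transcript counts, in percent, on Dbp-205, Tef-203 and Tef-201 in each library by labelled group; points are libraries, lines means and bars SDs of 4. The share of the retained-intron forms Dbp-205 and Tef-203 is highest in D_B12, whereas Tef-201 overlaps between all groups.

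Other clock genes gave the setting. Of 10 core clock repressor genes, 10 had a log2 difference below 0 in D_B12 against D_C, with a median of -0.364 beside -0.000437 over all genes. None passed the adjusted test, where no tested gene did (0%). Per3 (-0.80), Cry1 (-0.89), Cry2 (-0.74) and Per1 (-0.55) did not overlap between these groups, 4 of 10 beside 3.18% of all genes. Among the activator genes, Bmal1 (1.59) and Npas2 (1.47) were higher without overlap, beside 3.4% of all genes, and neither passed the adjusted test. In D_C against ND_C, 9 of the 10 repressors had differences above 0, median 0.209 beside -0.00341 over all genes, and Cry2 was just inside the threshold (0.89, adjusted p = 0.05, edgeR).

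A list of 11 genes of xenobiotic and lipid metabolism held reported targets of the PAR bZIP factors. None passed the adjusted test in D_B12 against D_C, where no tested gene did (0%). Of the 11, 9 had a difference below 0, and the median was -0.157 beside -0.000437 over all genes. Ppara, the nuclear receptor of fatty acid oxidation, differed by -0.34 (SE 0.09) and Por, the electron donor of cytochrome P450 enzymes, by -0.25 (SE 0.08), both without overlap and with adjusted p of 0.138 and 0.169 (edgeR). They were the 2 of 11 that were lower without overlap, beside 3.18% of all genes. In D_B12 against ND_B12, Ppara fell by 0.65 on the log2 scale (adjusted p = 0.0169, edgeR), the only one of the 11 to pass, beside 0.823% of all genes. Of 11 rhythmic kidney output genes, 9 lay below 0 in D_B12 against D_C (median -0.39), none past the adjusted test. Nampt, which makes NAD, differed by -0.39 and the cell cycle kinase Wee1 by -0.59, both without overlap. They were among 3 of 11 that were lower without overlap, beside 3.18% of all genes. In D_C against ND_C the water channel gene Aqp2 rose by 1.69 (adjusted p = 0.0436, edgeR), the only one of that list to pass, beside 1.66% of all genes.

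Inputs that can move clock output genes, and cell types other than the main ones, were examined through lists. In D_B12 against D_C no gene passed the adjusted test among 11 glucocorticoid-responsive genes (median -0.012), 8 immediate early genes (median -0.159) or 8 temperature-responsive genes (median 0.272). Since no tested gene passed there (0%), this does not set the lists apart from other genes. Lower without overlap were 2 of 8 immediate early and 1 of 11 glucocorticoid-responsive genes, beside 3.18% of all genes. No temperature-responsive gene was free of overlap. In D_C against ND_C, 1 immediate early gene, Ier2, rose by 0.62 (adjusted p = 0.0443, edgeR), 1 of 8 beside 1.66% of all genes, and none of the other 2 lists passed. Both thick ascending limb markers, Umod and Slc12a1, were lower without overlap in D_B12 than in D_C, 2 of 2 beside 3.18% of all genes. Their sum was 166474 to 197866 against 223751 to 304558. All 4 macrophage markers lay below 0, with sums of 1545 to 1945 against 2089 to 2879. Sums of 6 adipocyte markers ran from 23.1 to 12510 in D_B12 and from 30.1 to 7379 in D_C, and those of 4 B and plasma cell markers from 473.4 to 683.1 in D_B12, 452.9 to 1268 in D_C, 1092 to 4591 in ND_B12 and 1859 to 9338 in ND_C. The part of these cell types in the values of the 9 genes was not tested, and in whole kidney fewer cells of a type and less RNA per cell cannot be told apart.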

How the data were processed

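Kidney RNA of 16 mice was sequenced as paired-end reads. Per the methods of the study, the authors aligned reads with STAR to GRCm39 (GENCODE vM35) and obtained estimated counts per gene and transcript with StringTie and its count script. The deposited estimated counts were whole numbers and were used unchanged. A single edgeR 4.0.16 quasi-likelihood model (R 4.3.3, TMM factors) was fitted to all 16 libraries with 1 mean per labelled group, over 25408 of 57186 genes with at least 100 counts in total. P-values were adjusted by Benjamini-Hochberg over all genes tested, with a threshold of 0.05. Normalized counts were obtained with size factors from the median-of-ratios method, and log2 CPM used a prior count of 2. Correlation p-values came from 100000 permutations, adjusted over 36 pairs of the 9 genes and, for Bmal1, over 9. Lengths, starts and sequences came from GENCODE vM39 on GRCm39. The supplementary group means were compared with the means over every set of 4 libraries (1820 sets). The edgeR and DESeq2 fits were tested on simulated counts with known changes in the D_B12 libraries.

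The 9 genes and all lists were chosen with earlier results of these data known. All 9 genes and the core clock genes could be named, with the 2 genes of smallest p in each other list for 2 comparisons and the 3 genes most correlated with each of the 9. One gene of the core clock lists is not reported here. The aligner assigned strand from intron motifs, and the strand setting of StringTie is not given in the sources used here. The labels call the replicates biological and say no more, so p-values measure the spread between these libraries. Total counts of 65271308 to 91771136 leave at least 154 raw counts for any of the 9 genes in any library. The sources of the spread between libraries were not tested. Alternatives were DESeq2 1.42.0, upper-quartile factors, filters of 1 count and by filterByExpr, the date in the library name as covariate, a block for replicate number, the compared groups alone, each library left out in turn, and ND_B12 4 with D_C 1 left out.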

Additional observations from a re-analysis of the deposited data

Results flagged for a closer look

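In 100 sets of 4 libraries (the 9 genes and 16 core clock genes in 4 groups), Dixon's test at 95% marked 5 sets, in 3 libraries, in which 1 library lay apart from the other 3 of its group, which is the number chance gives at about 1 in 20. Hlf in ND_C 1 had 8559 normalized counts beside 10322 to 10495, and Hlf in ND_B12 1 had 10050 beside 13196 to 13796. In the same library, ND_B12 1, Bmal1 had 1063 counts beside 226.3 to 254.1 and Cry2 had 1252 beside 2318 to 2465. Timeless in D_B12 1 had 237.7 counts beside at most 210.1. ND_B12 1 also had the lowest Dbp count of its group, 2148 beside 6116 to 6988, a gap just short of the same limit. Without ND_B12 1 the interaction of Dbp and Hlf had adjusted p of 0.0414 and 0.0392 (edgeR).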

How the results depend on the processing

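Each value was recomputed under up to 24 alternatives, and 1033 values for single genes kept their direction and their side of the threshold, 24 passed the threshold only in the alternative and 14 reversed. None of the 9 genes was called in any comparison by edgeR as reported. DESeq2 called 2 of them for B12 in diabetic kidneys, 2 for diabetes in untreated and 4 for diabetes in B12-treated kidneys, and 4 for the interaction. The library date as a covariate called 1 for B12 in diabetic kidneys (Nr1d2) and 3 for the interaction (Dbp, Tef and Nr1d2). These calls rest on a straight line over days and do not separate date from group. Leaving out ND_B12 4 and D_C 1 together called 1 for diabetes in untreated kidneys (Bhlhe41) and 1 in B12-treated kidneys (Bhlhe40). With single libraries left out the count was 0 to 1 for each of the diabetes comparisons and 0 to 2 for the interaction. With the replicate number as a block 2 genes, Tef and Nr1d2, were called for the interaction. Libraries of one number did not deviate together (correlations of -0.183 to 0.168). This gives no sign that the numbers pair mice and cannot exclude it. The block changed no other count for the 9 genes. Over all genes, calls for diabetes in untreated kidneys went from 423 to 2 with the date, to 63 with a filter of 1 count, to 1637 with DESeq2 and to 2127 without ND_B12 4 and D_C 1, and from 0 to 1552 over single libraries left out. For diabetes in B12-treated kidneys they went from 209 to 1189 with DESeq2, 18 with upper-quartile factors (66 higher and 143 lower becoming 8 and 10), 35 with a filter of 1 count, 29 with the date, 25 with the block, 695 without ND_B12 4 and D_C 1, and 0 to 441 over single libraries left out. For B12 in diabetic kidneys they went from 0 to 670 with DESeq2, 204 with the date, 216 without that pair and 0 to 69 over single libraries left out, and for the interaction from 0 to 943, 753, 87 and 0 to 266, and 147 with the block. The cause of these shifts was not tested.

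The reversed values were as follows. With the date, Nr1d1 had -0.0734 (D_B12 against D_C) and -0.0728 (D_B12 against ND_B12), and for diabetes in untreated kidneys Dbp had -0.0020 (0.60 as reported), Tef -0.0300 and Nr1d2 -0.0320. Without ND_B12 4 and D_C 1, Bhlhe40 had 0.0349 for B12 in non-diabetic kidneys, Nr1d1 0.127 for diabetes in untreated and Bhlhe41 0.155 for diabetes in B12-treated kidneys. Over single libraries left out these 3 ran from -0.169 to 0.0371, -0.158 to 0.119 and -0.538 to 0.153. The exact permutation tests with a prior count of 0.5 and the correlations on another scale kept their side of the threshold.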
